A study of Homo sapiens and Mus musculus with 18 samples.

Results

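MAGED1, MAGED2, MAGED4, MAGED4B, MAGEH1 and MAGEF1 are human genes of the melanoma antigen (MAGE) family that are expressed outside the germ line. These 6 genes were taken by name from a table of 58735 genes measured in 10 RNA-seq libraries of Met5a, an immortalised human mesothelial cell line, and MAGED4 was also added to MAGED4B because the pair are copies of each other. The family was chosen by the difference of MAGED4 counts between V1 and CTR libraries, so member values in that contrast, calls included, only describe the values behind the choice and support nothing. The 3 CTR libraries carry the genotype WT in the labels. The 4 V1 and the 3 V3 libraries are labelled Amhr2+ and overexpress a form of AMHR2, the type II receptor through which anti-Müllerian hormone signals, and which the study describes as active for V1 and as inactive for V3. All cells were kept in DMEM with 10% serum. The labels say neither whether CTR cells received a vector, nor whether a library is a clone, a pool or a separate culture, so a p-value here measures no more than the spread between the libraries, which may be technical. Comparisons of V1 and of V3 with CTR share the CTR libraries.

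MAGE proteins share a winged-helix fold, the MAGE homology domain, through which many of them bind a RING-type E3 ubiquitin ligase and steer its choice of targets. Type I MAGE genes, the cancer-testis antigens, are normally silent outside the germ line and are turned on in many tumours. Type II genes, which include all 6 described here, are transcribed in many normal tissues. MAGED1 binds the neurotrophin receptor p75 and takes part in cell death and in the circadian clock, and MAGED2 is the gene of transient antenatal Bartter syndrome, in which salt transport by the fetal kidney fails. MAGEF1 works with the NSMCE1 ligase and marks MMS19, a factor of cytosolic iron-sulphur cluster assembly, for degradation. MAGEH1 is a small intronless member that also binds p75. MAGED4 has been studied mainly in brain and liver tumours.

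The sequences show what a short read can tell apart. Within the coding sequence, bases 1531 to 1590 of MAGED4 were set beside the matching 60 bases of its relatives. This window was chosen for the highest combined identity to MAGED1 and MAGED2, so it is not typical of the coding sequence. Bases are read 5′ to 3′ on the coding strand from GENCODE 29 transcripts on GRCh38, with capitals for those that differ from MAGED4.
MAGED4: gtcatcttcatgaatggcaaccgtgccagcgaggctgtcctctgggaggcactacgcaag
MAGED4B: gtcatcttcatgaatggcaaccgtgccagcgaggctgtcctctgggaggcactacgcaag
MAGED1: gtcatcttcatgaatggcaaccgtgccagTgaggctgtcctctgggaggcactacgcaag
MAGED2: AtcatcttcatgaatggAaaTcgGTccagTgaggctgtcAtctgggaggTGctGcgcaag
MAGED4B did not differ at any base of the window, MAGED1 differed at 1 (coding bases 1873 to 1932) and MAGED2 at 10 (coding bases 1132 to 1191). The full coding sequences of MAGED4 and MAGED4B are 2271 bases long with 0 mismatches, whereas over all aligned coding bases MAGED4 is 69.5% identical to MAGED1 and 67.6% to MAGED2. Of all 100-base stretches in the MAGED4 transcripts, 98.1% also occur in MAGED4B transcripts or in another gene, and 95.6% of those of MAGED4B occur elsewhere. MAGED1, MAGED2, MAGEH1 and MAGEF1 share 0 of their 100-base stretches with another gene. A read inside MAGED4 can therefore rarely be given to 1 copy from its letters, and the sources used here do not say how such reads were counted.

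The copies lie on opposite strands of the X chromosome. On GRCh38, MAGED4 (ENSG00000154545) spans chrX:52184823-52192268 on the plus strand and MAGED4B (ENSG00000187243) chrX:52061827-52069248 on the minus strand, with 115574 bases between them. Their promoters are copies too, as the RefSeq windows from 250 bases before to 50 after the start show (GRCh38.p14), where capitals mark the 276 bases that both windows hold.
MAGED4, chrX:52184638-52184937, plus strand: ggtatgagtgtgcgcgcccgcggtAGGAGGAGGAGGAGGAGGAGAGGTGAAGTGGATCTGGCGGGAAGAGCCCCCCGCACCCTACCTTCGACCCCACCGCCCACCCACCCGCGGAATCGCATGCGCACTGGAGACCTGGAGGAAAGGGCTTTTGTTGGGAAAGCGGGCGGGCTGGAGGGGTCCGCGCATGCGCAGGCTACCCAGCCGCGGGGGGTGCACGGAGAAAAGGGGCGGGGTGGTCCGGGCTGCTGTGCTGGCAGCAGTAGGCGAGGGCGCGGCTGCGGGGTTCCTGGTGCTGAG
MAGED4B, chrX:52069134-52069433, minus strand: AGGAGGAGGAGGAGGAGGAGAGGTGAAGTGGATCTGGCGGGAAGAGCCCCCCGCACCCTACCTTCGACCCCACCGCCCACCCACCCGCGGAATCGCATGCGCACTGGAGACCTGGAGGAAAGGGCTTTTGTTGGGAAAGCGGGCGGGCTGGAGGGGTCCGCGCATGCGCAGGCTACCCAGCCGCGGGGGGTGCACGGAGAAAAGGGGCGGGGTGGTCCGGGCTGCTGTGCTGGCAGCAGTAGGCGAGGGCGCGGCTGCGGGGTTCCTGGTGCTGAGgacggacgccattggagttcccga
The 24 lower-case bases in each window come only from the offset between the annotated starts. The dinucleotide CG, which reads the same on both strands, occurs 26 times in the MAGED4 window and 25 times in the MAGED4B window shown, against a median of 14 over 35116 RefSeq promoter windows of the same length. At least 26 are held by 30.1% of those windows and at least 25 by 32.0%. A further RefSeq window of MAGED4B holds 22, a count reached by 37.7% of windows. Promoters were matched for 5 of the 6 genes, with 10 and 20 CG in the windows of MAGED1, 10 and 11 in those of MAGED2 and 21 in that of MAGEF1.

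MAGED1 (ENSG00000179222) covers chrX:51803007-51902357 on the plus strand and overlaps a processed pseudogene and an antisense U6 RNA gene. MAGED2 (ENSG00000102316) covers chrX:54807599-54816012 on the plus strand. MAGEH1 (ENSG00000187601, chrX:55452105-55453566, plus strand) and MAGEF1 (ENSG00000177383, chr3:184710367-184712002, minus strand) each have 1 exon. MAGED2, MAGED4 and MAGED4B each hold a small nucleolar RNA gene on their own strand, named SNORA11, SNORA11D and SNORA11E.

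The 10 libraries held 15489888 to 21642906 counts, with 3.22% to 5.09% of them on mitochondrial genes. V1 1 and CTR 3, at 4.93% and 5.09%, had the highest mitochondrial shares, and the weakest best match to any other library in the correlation of log2 CPM over all tested genes (0.95 and 0.94). V1 4 and V3 1, which carry different receptor forms and hold the most AMHR2, matched each other best (0.99). CTR 2, with 0 AMHR2 counts, also matched V3 1 best (0.99), as did V1 1 (0.95). V1 2 matched V1 3 and V3 2 matched V3 3 (0.97 each). AMHR2 had 0 counts in CTR, where 3 counts, taken as the limit of a count of 0, correspond to 0.140, 0.168 and 0.177 CPM (counts per 1000000 of the TMM-scaled library size). In V1 it measured 68.1, 20.6, 1.98 and 5253 CPM and in V3 6061, 61.8 and 2.72 CPM, so the receptor transcript itself was very uneven within both groups. Every library expressed the keratins KRT8 (746 to 3141 CPM) and KRT18 (326 to 1609 CPM), the highest of 10 listed mesothelial markers. WT1, of the same list, was too low to be tested. The other listed markers averaged from 59.1 CPM (BNC1) down to 0.213 CPM (KRT19) in CTR, with UPK3B at 1.52 and LRRN4 at 2.69 CPM. Markers of immune cells summed to at most 1.10 CPM.

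Per unit of length, MAGED1, MAGED2 and MAGEF1 were the abundant members. In CTR cells, on the deposited FPKM scale, MAGED1 measured 50.8 ± 6.21, MAGED2 48.3 ± 2.85 and MAGEF1 42.6 ± 2.25 (mean ± SD, n = 3). MAGED1 overlapped with MAGED2 and with MAGEF1 library by library, and MAGED2 lay above MAGEF1 without overlap. MAGEH1 followed at 9.91 ± 1.47, MAGED4 at 3.20 ± 0.408 and MAGED4B at 0.603 ± 0.537 FPKM, each below the previous without overlap. The places of MAGED4 and MAGED4B depend on how reads matching both copies were counted, which is not known here. This order is that of CTR: in V3 the mean of MAGEF1, 54.7 FPKM, was above that of MAGED1, 50.1 FPKM, with overlapping libraries. All levels and differences below are in CPM, which compares 1 gene between libraries and not genes with each other.

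MAGED4 was high in CTR cells and low in every library that carries a receptor form. It measured 17.8, 14.0 and 15.2 CPM in CTR (380, 249 and 257 counts), 0.753, 1.29, 2.07 and 0.637 CPM in V1 (13, 26, 44 and 11 counts), and 0.996, 0.904 and 1.33 CPM in V3 (20, 16 and 23 counts). The groups V1 and V3 overlap with each other and neither overlaps with CTR. The lowest CTR library was 6.75 times the highest V1 library and 10.5 times the highest V3 library. Group means were 15.6 ± 1.94 CPM for the 3 CTR, 1.19 ± 0.653 CPM for the 4 V1 and 1.08 ± 0.224 CPM for the 3 V3 libraries (± SD).

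Within each receptor group, the library with the least AMHR2 transcript had the most MAGED4, but the order did not run through V3. The summed pair did not follow it in V1. In V1, libraries with AMHR2 at 1.98, 20.6, 68.1 and 5253 CPM had MAGED4 at 2.07, 1.29, 0.753 and 0.637 CPM. In V3, libraries with AMHR2 at 2.72, 61.8 and 6061 CPM had MAGED4 at 1.33, 0.904 and 0.996 CPM, so the least MAGED4 stood in the middle library. MAGED4 and MAGED4B summed gave 2.92, 14.3, 6.37 and 1.45 CPM in the same V1 libraries, so the order was absent there. In the V3 libraries the sum gave 3.12, 1.53 and 2.39 CPM, again with the least in the middle library. MAGED4 differed far less among these libraries than AMHR2 did. No test was made of this order within groups of 4 and 3.

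**Figure D1:**
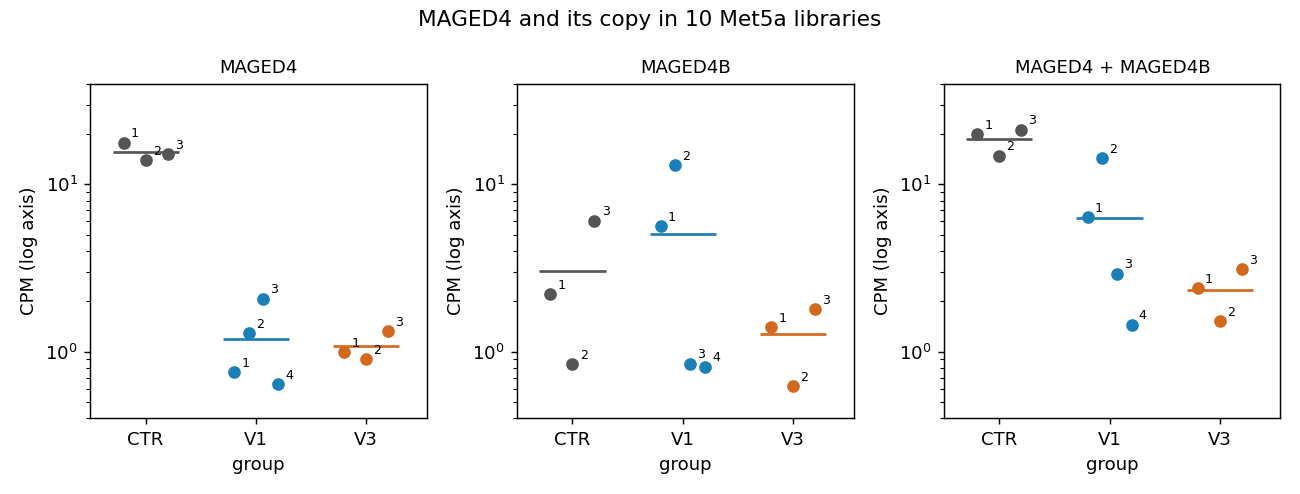
Levels of MAGED4, MAGED4B and their sum in CPM (log axis) by group, with 1 point per library labelled by its replicate number and a bar at the group mean. MAGED4 lies at 14.0 CPM or more in CTR and at 2.07 CPM or less in all V1 and V3 libraries, whereas MAGED4B overlaps between all groups.

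MAGED4B, the copy on the minus strand, did not follow this order. It measured 2.20, 0.842 and 6.07 CPM in CTR (47, 15 and 103 counts), 5.62, 13.0, 0.847 and 0.811 CPM in V1 (97, 262, 18 and 14 counts), and 1.39, 0.621 and 1.79 CPM in V3 (28, 11 and 31 counts). All groups overlap, V1 2 is the highest library and V3 2 the lowest. Within V1 the highest library was 16.0 times the lowest, and V1 1 and V1 2 stood above V1 3 and V1 4.

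Because of the copies, the split of the counts was examined by library. Of the counts on the pair, MAGED4B held 11.0%, 5.68% and 28.6% in CTR, 88.2%, 91.0%, 29.0% and 56% in V1, and 58.3%, 40.7% and 57.4% in V3. The shares of all 7 receptor libraries were above those of all 3 CTR libraries, but V1 3 and CTR 3 lay next to each other. Their exact (Clopper-Pearson) 95% intervals, which cover counting error only, were 18.2% to 41.9% and 24.0% to 33.6%. The intervals of V1 1 (80.6% to 93.6%) and V1 2 (87.1% to 94.0%) lay above those of every other library. In V1 1 and V1 2 most of the pair's reads were thus counted on the copy that held few of them in CTR 1 and CTR 2.

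**Figure D2:**
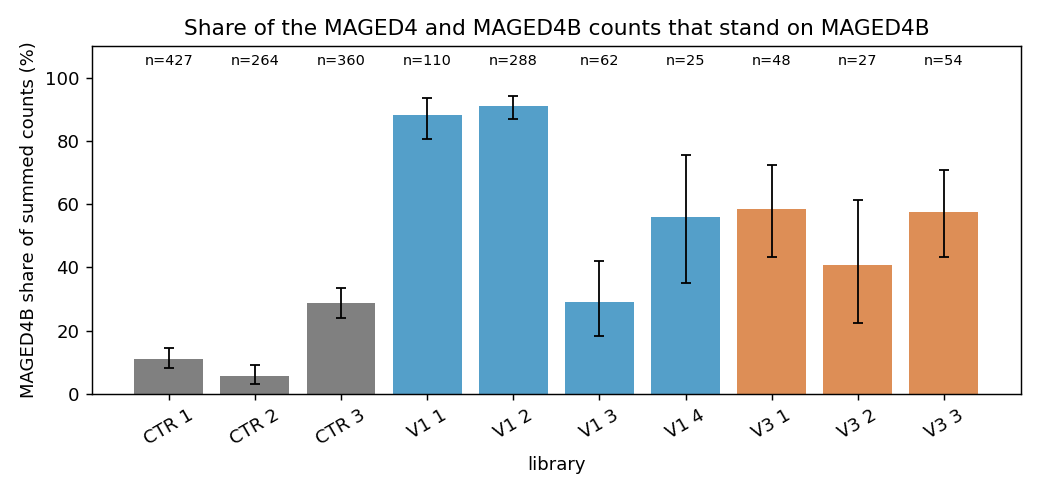
Share of the summed MAGED4 and MAGED4B counts that stood on MAGED4B, in percent per library, with exact 95% binomial intervals and the summed count above each bar. V1 1 and V1 2 reach 88.2% and 91.0%, while CTR 1 and CTR 2 are at 11.0% and 5.68%.

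Summing the copies removes any effect of how counted reads were split between them. It does not bring back reads that may have been dropped for matching both copies. Whether any were dropped is not known here. The sum measured 20.0, 14.8 and 21.2 CPM in CTR, 6.37, 14.3, 2.92 and 1.45 CPM in V1, and 2.39, 1.53 and 3.12 CPM in V3. V3 lay well below CTR, with the lowest CTR library 4.75 times the highest V3 library. V1 was spread widely: V1 2, at 14.3 CPM, nearly reached CTR 2, at 14.8 CPM, whereas V1 3 lay in the range of V3 and V1 4 was the lowest of all 10 libraries. The mean of the sum was 18.7 ± 3.40 CPM in the 3 CTR libraries, 6.25 ± 5.73 CPM in the 4 of V1 and 2.35 ± 0.798 CPM in the 3 of V3.

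MAGED1, which binds the p75 receptor, differed among the V1 libraries more than between groups. It measured 317, 344 and 271 CPM in CTR, 119, 530 and 489 CPM in V1 1 to V1 3 and 277 CPM in V1 4, and 286, 281 and 349 CPM in V3. V1 1 was the lowest and V1 2 the highest of all libraries, a range of 4.44 times within V1. CTR and V3 overlap throughout, with means of 311 ± 37.4 and 305 ± 37.9 CPM (n = 3 each) against 354 ± 192 CPM in V1 (n = 4).

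MAGED2, which sustains salt cotransporters in the fetal kidney, showed the same arrangement of libraries. It measured 152, 145 and 136 CPM in CTR, 62.1, 188, 185 and 135 CPM in V1, and 139, 135 and 142 CPM in V3. Again V1 1 was lowest and V1 2 and V1 3 were highest, while the 6 CTR and V3 libraries stayed within 135 to 152 CPM. The means were 145 ± 7.91 CPM in CTR, 142 ± 58.8 in V1 and 139 ± 3.81 in V3 (n = 3, 4 and 3).

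MAGEH1 varied most among the 4 members outside the pair. It measured 16.5, 12.3 and 15.4 CPM in CTR, 2.78, 22.5, 19.0 and 7.35 CPM in V1, and 10.2, 16.1 and 20.2 CPM in V3. V1 1 was lowest and V1 2 highest, 8.08 times apart, and all groups overlap.

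MAGEF1, the partner of NSMCE1, measured 72.0, 66.7 and 74.0 CPM in CTR, 47.5, 94.0, 96.4 and 53.0 CPM in V1, and 55.2, 101 and 116 CPM in V3. CTR libraries were close together. V1 and V3 each held libraries on either side of them, with V1 1, V1 4 and V3 1 below all CTR libraries and the other 4 receptor libraries above. The low libraries V1 4 and V3 1 are those with the most AMHR2 transcript (5253 and 6061 CPM), while V1 1 had 68.1 CPM of it.

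**Figure D3:**
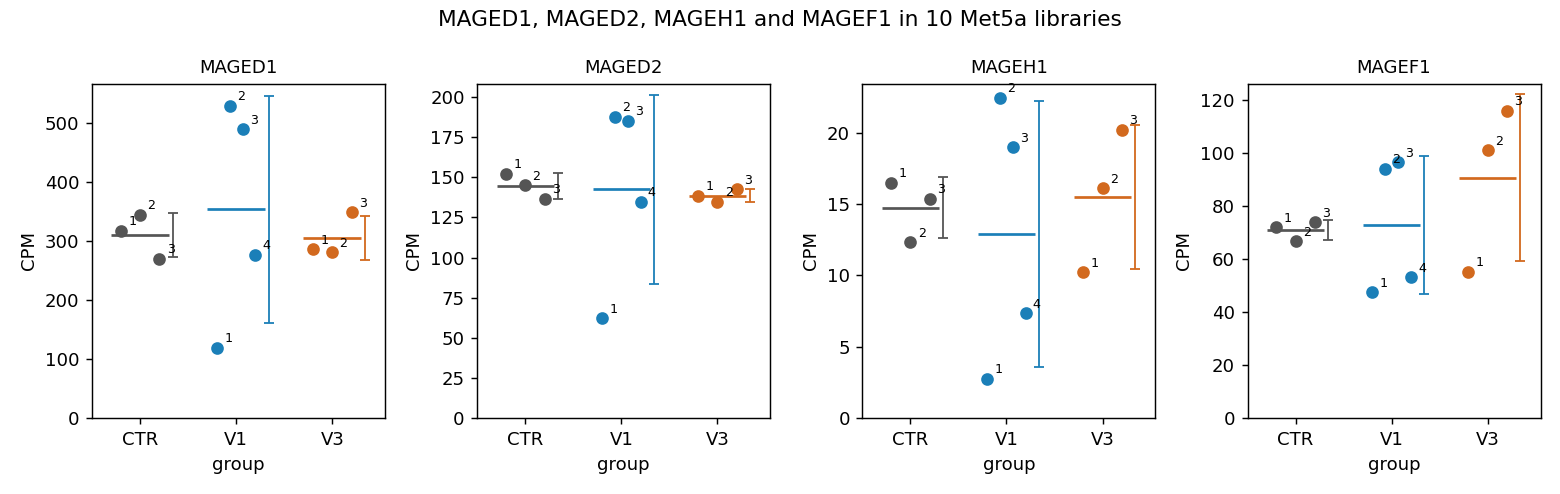
Levels of MAGED1, MAGED2, MAGEH1 and MAGEF1 in CPM (linear axes from 0) by group, with 1 point per library labelled by its replicate number, a bar at the group mean and a whisker of 1 SD to the right. V1 1 is the lowest library in all 4 panels, at 119, 62.1, 2.78 and 47.5 CPM.

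Across the 10 libraries these members moved together to different degrees. The Pearson correlation of log2 CPM was 0.97 for MAGED1 with MAGED2, 0.89 for MAGED1 with MAGEH1, 0.90 for MAGED2 with MAGEH1, 0.85 for MAGEH1 with MAGEF1, 0.67 for MAGED1 with MAGEF1 and 0.62 for MAGED2 with MAGEF1. MAGED4 and MAGED4B, in contrast, had a correlation of 0.09. These are descriptions over 10 libraries that share 1 normalisation, and V1 1 and V1 2 are the extremes of MAGED1, MAGED2 and MAGEH1.

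In V3 against CTR, the contrast of the inactive receptor form, 0 of the 6 members were called by the edgeR quasi-likelihood test at a Benjamini-Hochberg adjusted p under 0.05, where 0% of 17175 tested genes were called and 4.23% had an unadjusted p under 0.05. MAGED4 was lower in V3 by the widest margin among members, with a log2 difference of -3.85 (SE 0.47, 95% interval -4.89 to -2.82), and its adjusted p of 0.0658 from edgeR was the smallest of all genes. The mean CPM in CTR was 14.5 times that in V3, and MAGED4 was lower in 3 of 3 V3 libraries. An exact two-sided permutation test gave p = 0.1, the smallest that 3 against 3 libraries allow. The CTR libraries are those in which MAGED4 was singled out, so this test is not independent of that choice. MAGED4 passed the threshold in 5 of 18 alternative analyses, among them DESeq2, a fit of V3 and CTR alone (edgeR adjusted p = 0.0269) and one without V1 3 (edgeR adjusted p = 0.0207), and adjusted p over the alternatives ran from 4.34e-14 to 1.00.

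The summed pair differed by -2.99 on the log2 scale in V3 (SE 0.70, 95% interval -4.51 to -1.47). It was not called (edgeR adjusted p = 1.00, unadjusted p = 0.00112), and the exact permutation p was again 0.1. CTR held 7.96 times the mean CPM of V3, and all 3 V3 libraries lay below all 3 CTR libraries. Groups did not overlap, with V3 lower, for 5.17% of all tested genes, and for 1 of 6 members. With no filter on low counts edgeR called the sum (adjusted p = 0.000111), and DESeq2 did as well (adjusted p = 0.0149). Without V1 1 and CTR 3 together, the values were -3.87 for MAGED4 and -2.88 for the sum, neither of them called.

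The other members differed little between V3 and CTR on average, with intervals that still allow changes. The log2 differences were -0.03 for MAGED1 (95% interval -0.95 to 0.90), -0.06 for MAGED2 (-0.77 to 0.65), 0.07 for MAGEH1 (-1.21 to 1.35) and 0.36 for MAGEF1 (-0.35 to 1.06). MAGED4B gave -1.25 (-3.48 to 0.98), and -0.27 with V1 1 and CTR 3 left out. All 5 had an edgeR adjusted p of 1.00, and their groups overlapped.

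In V1 against CTR, the contrast that singled out MAGED4, 1 of 6 members was called by edgeR, where 0.00582% of all genes were called, that is MAGED4 itself. This call rests on the values that chose the family, and nothing is read from it. The log2 differences were -3.70 for MAGED4 (SE 0.42), 0.74 for MAGED4B (SE 0.93), 0.19 for MAGED1 (SE 0.40), -0.02 for MAGED2 (SE 0.30), -0.19 for MAGEH1 (SE 0.55) and 0.04 for MAGEF1 (SE 0.30). The sum of the pair gave -1.58 (SE 0.60), a smaller difference than that of MAGED4 alone. Among all tested genes 3.34% did not overlap with V1 lower, and 1 of the 6 members did so. The sum was also without overlap, but only by the gap between 14.3 and 14.8 CPM. Without V1 2 the sum gave -2.38, and without V1 4 it gave -1.24. With V1 1 and CTR 3 left out together it gave -1.48.

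In V1 against V3, the contrast of the active with the inactive form, 0 of 6 members were called, as were 0% of all tested genes, while 4.01% had an unadjusted p under 0.05. Groups of all 6 members overlapped, where 4.92% of tested genes did not. MAGED4 differed by 0.15 on the log2 scale (SE 0.42, 95% interval -0.77 to 1.07, edgeR adjusted p = 0.996). MAGED4B was higher in V1 by 1.99 (SE 0.99, interval -0.18 to 4.16, edgeR adjusted p = 0.985, exact permutation p = 0.4). The sum was higher in V1 by 1.41 (SE 0.64, interval 0.02 to 2.81, edgeR adjusted p = 0.985, exact permutation p = 0.371), where 35 arrangements allow no p under 0.0286. Without V1 2 the sum differed by 0.61 and MAGED4B by 0.93. The differences of MAGED1, MAGED2, MAGEH1 and MAGEF1 were 0.21, 0.04, -0.26 and -0.32, with intervals of -0.65 to 1.08, -0.62 to 0.70, -1.46 to 0.93 and -0.98 to 0.34. That a p misses the threshold does not show that the receptor forms act alike.

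**Figure D4:**
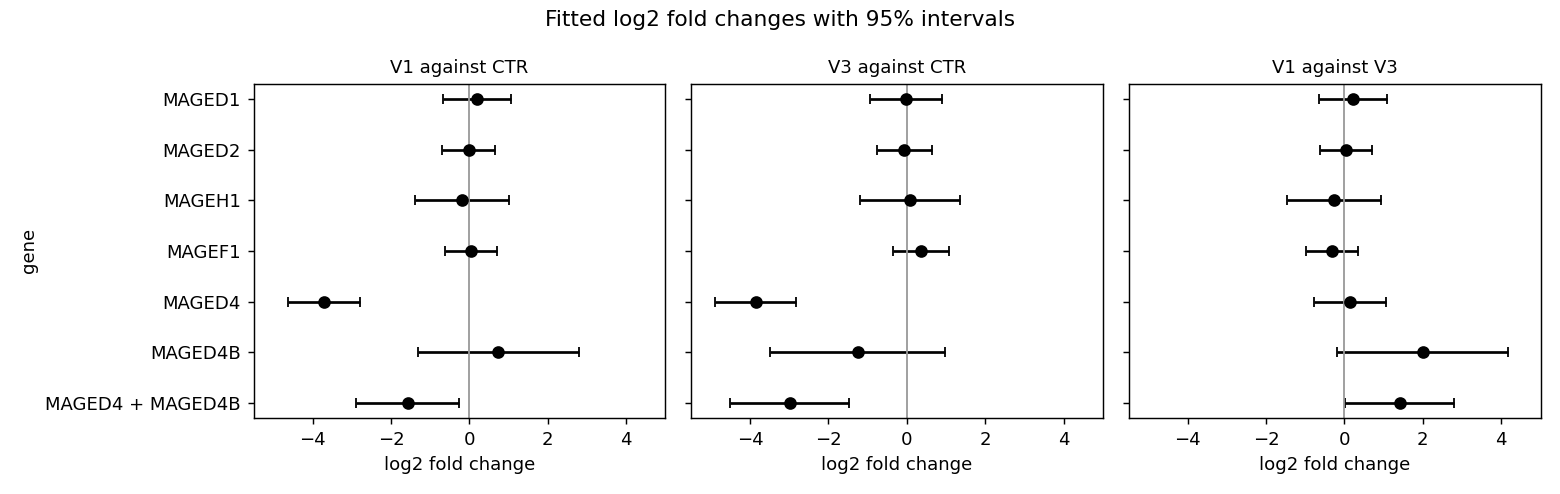
Fitted log2 differences of the 6 genes and of the summed pair in the 3 comparisons, with 95% intervals from the edgeR fit and a line at 0 (for V1 against CTR, which chose the family, a description). MAGED4 lies at -3.70 and -3.85 against CTR and at 0.15 between V1 and V3, and the comparisons share libraries.

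Markers of other cell types had no called difference, but some were on average lower in the receptor groups. Calls made up 0.00582% of all tested genes in V1 and 0% in V3 against CTR. Of 6 fibroblast markers, 3 were tested and none was called. All 3 had log2 differences below 0 in both receptor groups, with a median of -2.46 in V1 and -2.43 in V3. Over all genes the medians were 0.01 and -0.00433. All 3 had an unadjusted edgeR p under 0.05 in both, as had 1325 of 17175 tested genes in V1 and 727 in V3. Summed over the list, fibroblast markers measured 40.9 to 360 CPM in CTR, 15.5 to 64.2 CPM in V1 and 23.4 to 64.9 CPM in V3. These sums overlap. DCN, of the same list and named after its values were seen, did not overlap. It measured 3.20 to 6.41 CPM in CTR, at most 1.56 CPM in V1 and at most 1.54 CPM in V3. Of all tested genes, 3.34% were lower without overlap in V1 and 5.17% in V3. The collagen gene COL1A1 measured 212, 110 and 34.9 CPM in CTR, 13.9 to 60.4 CPM in V1 and 20.9 to 60.8 CPM in V3. COL1A2, its partner in type I collagen, measured 68.3, 4.04 and 0.885 CPM in CTR, 1.27 to 12.0 CPM in V1 and 1.44 to 1.98 CPM in V3, and was high in CTR 1 alone. The remaining fibroblast markers were uneven within CTR as well, where PDGFRA ranged from 0.0561 to 64.1 CPM, THY1 from 0 to 7.48 CPM and LUM from 0 to 1.82 CPM. In the receptor libraries they reached at most 0.347, 0.174 and 0.498 CPM. All 4 endothelial markers were tested, with 2 higher and 2 lower in each receptor group against CTR and none called. An unadjusted edgeR p under 0.05 was held by 2 of them in V1 and 1 in V3. KDR, also named after its values were seen, did not overlap. It measured 1.23 to 9.40 CPM in CTR, at most 0.811 CPM in V1 and at most 0.897 CPM in V3. CDH5, the cadherin of endothelial junctions, measured 1.92 to 3.82 CPM in CTR, 1.04 to 21.2 CPM in V1 and 2.20 to 6.72 CPM in V3. PECAM1, a further junction marker, measured 0.898 to 10.7, 0.637 to 7.49 and 0.747 to 1.73 CPM in CTR, V1 and V3. CALB2, a mesothelial marker named after its values were seen, measured 18.3, 15.3 and 57.5 CPM in CTR, 0.446 to 6.37 CPM in V1 and 3.47 to 6.62 CPM in V3. Of 10 mesothelial markers 9 were tested and none was called, with 1 higher and 8 lower in V1 (median log2 difference -0.27) and 4 higher and 5 lower in V3 (median -0.000777), so CALB2 did not stand for its list. Their summed level overlapped between groups (2366 to 4866, 1123 to 4151 and 1893 to 4302 CPM in CTR, V1 and V3). The part of these markers in the MAGED4 difference was not tested, and fewer expressing cells cannot be told apart from less RNA per cell.

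The rest of the MAGE family gave the members their setting. Of 6 other type II genes 4 were tested and none was called in any comparison. Nearly all tested genes went uncalled too, with 0.00582% called in V1 against CTR and 0% elsewhere. The median log2 differences of these type II genes were -0.02 in V1 and 0.36 in V3 against CTR. NSMCE3, the MAGE subunit of the SMC5/6 genome stability complex, measured 34.5, 32.7 and 30.6 CPM in CTR, 26.4, 51.0, 59.1 and 32.7 CPM in V1, and 37.9, 43.8 and 37.6 CPM in V3. Its lowest library was V1 1 and its highest V1 3. TRO, which encodes the adhesion protein trophinin and lies 104450 bases from MAGED2, measured 10.6, 8.08 and 26.4 CPM in CTR, 0.869, 23.3, 8.04 and 5.33 CPM in V1, and 4.83, 17.6 and 39.5 CPM in V3. Its lowest library was again V1 1, and all groups overlap.

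Type I MAGE genes were near silent in every library. Of 26 such genes, 13 had any count and 0 could be tested, and together they summed to at most 1.27 CPM. MAGEB17 and MAGEC3 were the highest, with means of 0.117 and 0.0734 CPM over the libraries. Of 23 other cancer-testis antigens 6 had any count, none could be tested, and the list summed to at most 0.347 CPM. TEX14 was the only germ cell marker of 4 that could be tested, at a mean of 1.30 CPM. The level of MAGED4 in CTR, 14.0 to 17.8 CPM, thus stood beside an almost silent type I family in the same libraries.

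Genes that work with MAGE proteins showed no called change, as was so for nearly all tested genes. The share called was 0.00582% in V1 and 0% in V3 against CTR. In the SMC5/6 complex all 5 genes were tested, with median log2 differences of 0.26 in V1 and 0.22 in V3, and SMC5 and SMC6 averaged 79.6 and 57.5 CPM over all libraries. Of 7 genes for RING ligases and the deubiquitinase USP7, 6 were tested, with medians of 0.08 and -0.03, and TRIM28, a ligase bound by type I MAGE proteins, averaged 662 CPM. All 4 genes of the iron-sulphur assembly list were tested, with medians of -0.43 in V1 and -0.10 in V3. An unadjusted edgeR p under 0.05 was held by 3 of them in V1 and 1 in V3. Among 17175 tested genes 1325 held it in V1 and 727 in V3. MMS19, the target of MAGEF1, measured 97.9, 92.5 and 102 CPM in CTR, 74.6, 62.1, 66.2 and 84.9 CPM in V1, and 83.0, 69.3 and 68.2 CPM in V3. V1 and V3 libraries all lay below CTR, as they did for 3.34% of all tested genes in V1 and 5.17% in V3. MMS19 was called in neither (edgeR adjusted p = 0.597 and 1.00). CIAO1, of the same assembly complex, measured 111.4 to 120 CPM in CTR, 71.4 to 103 CPM in V1 and 99.4 to 110.6 CPM in V3. It too lay below CTR without overlap, in V3 only narrowly. It was not called either (edgeR adjusted p = 0.606 and 1.00).

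Of 9 partners of MAGED1, 8 were tested, with median log2 differences of 0.30 in V1 and 0.28 in V3, and none was called. XIAP and BIRC2, inhibitors of caspases and cell death that bind MAGED1, averaged 80.2 and 60.8 CPM over all libraries. Of 5 partners and targets of MAGED2, 3 were tested, with medians of -0.26 and 0.08. GNAS, whose product, the stimulatory G protein, is bound by MAGED2, averaged 2100.4 CPM. TNFRSF10B, a death receptor gene, stood apart in CTR 3 at 401 CPM, against 129 and 143 CPM in the other CTR libraries, 62.1 to 149 CPM in V1 and 149 to 243 CPM in V3. DNA methylation is known to silence type I MAGE genes. All 7 genes of the DNA methylation list were tested, with medians of 0.01 and 0.00. DNMT1, the maintenance methyltransferase, averaged 334 CPM and UHRF1, its recruiting factor, 202 CPM. Methylation itself was not measured.

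The only tested gene within 500000 bases of the pair that is not a member, GSPT2, did not share the difference of MAGED4. It lies 438591 bases from MAGED4 and 315595 bases from MAGED4B, and nearer to MAGED1 (56775 bases). GSPT2, a translation termination factor, measured 12.6, 7.97 and 7.55 CPM in CTR, 8.86, 12.5, 12.7 and 8.97 CPM in V1, and 10.5, 10.0 and 10.6 CPM in V3. Its log2 differences were 0.20 in V1 and 0.14 in V3 against CTR, and it was not called (edgeR adjusted p = 0.885 and 1.00). Within 500000 bases of MAGED4 only MAGED4B, MAGED1 and GSPT2 could be tested, of 41 genes in the window. Nearest to MAGED2 and to MAGEH1 lay TRO, PFKFB1 and APEX2, and USP51, RRAGB and FAM104B. Nearest to MAGEF1 were VPS8, EPHB3 and CHRD, and none of these 9 genes was called in any comparison. At most 0.00582% of all tested genes were called in any comparison.

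Among 13702 tested protein-coding genes, those whose log2 CPM followed each member most closely over the 10 libraries were named by Pearson correlation. MAGED4 was followed by FGL1 (0.93), PRG4 (0.90) and ZNF785 (0.89). FGL1, a secreted fibrinogen-like protein, measured 0.889, 0.842 and 1.18 CPM in CTR and at most 0.0996 CPM in any receptor library. PRG4, the lubricating proteoglycan of joints and serous surfaces, measured 1.87, 0.786 and 2.60 CPM in CTR and at most 0.249 CPM elsewhere. In receptor libraries 1 count is 0.0470 to 0.0579 CPM, so both genes lay near the floor there and passed the filter only through CTR. They were picked for following MAGED4, so this separation was set by the choice and supports nothing. ZNF785, a zinc finger gene, measured 17.7 to 20.5 CPM in CTR and 12.5 to 16.6 CPM in the receptor libraries. MAGED4B was followed by LYST, KIF27 and ZNF155 (0.95, 0.94 and 0.93), and the sum by WNT6, C4B and ARNT (0.92, 0.91 and 0.89).

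The genes most like MAGED1 were ZDHHC3, GLB1 and BAP1 (0.97 each), and those most like MAGED2 were CTBP1, IGFBP6 and CYFIP1 (0.98 each). IGFBP6, a secreted binding protein of insulin-like growth factors, measured 16.1 CPM in V1 1 and 379 and 388 CPM in V1 2 and V1 3, a wider span of the same libraries than that of MAGED2. MAGEH1 was followed by JPH3 (0.97), QARS (0.97) and BRWD3 (0.96), and MAGEF1 by TCEAL8, TMEM74B and SLC25A20 (0.96, 0.96 and 0.95). Over all 13702 genes, 0.139% had a correlation above 0.8 with MAGED4, against 3.57% with MAGED1 and 3.96% with MAGED2. These correlations are descriptions over 10 libraries of 1 normalisation and say nothing about function.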

How the data were processed

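Values are whole-number counts per gene in 10 Met5a libraries, as deposited by the authors. The authors also deposited FPKM values, and each was checked to be the count divided by gene length and scaled by 1 factor per library. RNA was taken up with a column kit, per the labels' protocols. The sources used here do not give the aligner, counter, strandedness or treatment of reads matching both copies. The mouse tumour tables were not used here. Sample titles gave the groups and the replicate numbers.

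The members and lists were chosen with earlier results of these data known. The filter filterByExpr (edgeR 4.0.16, R 4.3.3, minimum count 10) left 17175 genes, or 17174 with the pair summed. TMM library sizes give CPM. The quasi-likelihood test had 1 coefficient per group over all 10 libraries, was two-sided and used Benjamini-Hochberg adjustment over all genes with a threshold of 0.05. Intervals use the t quantile at the degrees of freedom of edgeR. Exact permutation tests used mean log2 CPM with a prior count of 2. A count of 0 allows up to 3 counts. Such limits and the binomial intervals cover counting error only, since no molecular identifiers separate molecules from PCR copies.

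The named genes are the members, AMHR2, the 2 genes of highest mean CPM in each list, up to 3 nearest tested neighbours within 500000 bases of a member, and the 3 most correlated genes. DCN, KDR, CALB2 and further fibroblast and mesothelial markers were named besides, after their values were seen. Shared stretches were counted in GENCODE 29 transcripts. All 6 members have the same start and end there as in the deposited table. Alternatives were DESeq2 1.42.0, limma 3.58.1 on log2(FPKM + 1) or log2(FPKM + 0.1), other scaling, no filter, the compared groups only, a replicate block and each library left out. Leaving out V1 1 and CTR 3 together was chosen after seeing the data. The test was also run on simulated counts, drawn independently for each library with the fitted spread of each gene. Such counts hold no outlying libraries and no shared cultures, so that run cannot show how the test fares with them.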

Additional observations from a re-analysis of the deposited data

Results flagged for a closer look

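The 4 V1 libraries were examined for 1 far from the others, and groups of 3 such as CTR and V3 were not. Of 12 genes or sums examined on linear CPM by Dixon's ratio of gap to range, 1 stood out. Chance alone flags about 1 in 20 only where values are normally distributed, which linear CPM need not be. The log scale was not examined, so chance is not excluded. AMHR2 measured 5253 CPM in V1 4, and the nearest V1 library, V1 1, had 68.1 CPM. In V3, which was not examined, V3 1 stood at 6061 CPM against 61.8 and 2.72 CPM. MAGED4 in V1 4 was 0.637 CPM, the lowest of all 10 libraries. No cause was tested.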

How the results depend on the processing

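Of 378 alternative values of 21 log2 differences, 326 kept their direction and side of the threshold, 32 changed sign, 12 lost and 8 gained a call. V1 against CTR chose the family, so its calls and their changes are listed for completeness and say nothing about stability. The number of members called there was 1 and fell to 0 with the copies summed, with the compared groups only, with a replicate block, with limma on log2(FPKM + 0.1) and without V1 1 and CTR 3 together, and it ran from 0 to 1 with single libraries left out. In V3 against CTR it was 0 and became 1 without a filter, with the compared groups only, with DESeq2 and with limma on log2(FPKM + 1), and it ran from 0 to 1 with single libraries left out. In V1 against V3 it stayed 0 in all of these. The summed pair passed the threshold without a filter in V1 against CTR (-1.59) and in V3 against CTR (-2.99), and with DESeq2 in V3 against CTR (-2.99). With single libraries left out it ran from -2.38 to -1.24 in V1 against CTR, from -3.23 to -2.75 in V3 against CTR and from 0.61 to 1.75 in V1 against V3. The cause of these changes was not tested.

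Replicate numbers did not pair the libraries: 1 of 9 same-numbered pairs correlated above 0.1, and 2 of 10 libraries matched best with their own number. With the replicate block the sum gave -1.33, -2.98 and 1.65 in V1 against CTR, V3 against CTR and V1 against V3. Signs changed under the block for MAGEH1 in V3 against CTR (-0.0837) and MAGED2 in V1 against V3 (-0.0186). Without V1 1 and CTR 3 together they changed for MAGED2 (0.19) and MAGEH1 (0.18) in V1 against CTR and for MAGEH1 in V1 against V3 (0.0736). With limma on log2(FPKM + 1) they changed for MAGED1 (-0.0121) and MAGEF1 (-0.0266) in V1 against CTR and MAGED2 in V1 against V3 (-0.0790), and with log2(FPKM + 0.1) these were -0.0177, -0.0288 and -0.0841.

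With single libraries left out, signs also changed within these ranges. In V1 against CTR they were -0.0744 to 0.47 for MAGED1, -0.18 to 0.22 for MAGED2, -0.33 to 1.72 for MAGED4B, -0.60 to 0.14 for MAGEH1 and -0.12 to 0.19 for MAGEF1. In V3 against CTR they were -0.11 to 0.0743 for MAGED1 and -0.14 to 0.29 for MAGEH1. In V1 against V3 they were -0.0483 to 0.50 for MAGED1, -0.12 to 0.29 for MAGED2, -0.26 to 0.37 for MAGED4 and -0.67 to 0.0706 for MAGEH1. None of these sign changes concerned a called difference. Depth limits MAGED4 in the receptor libraries, where 11 to 44 counts stood on it, and the share of MAGED4B there.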
